A study of Mus musculus with 10 samples.

Results

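Dnase1 encodes deoxyribonuclease I, a secreted endonuclease that cuts double-stranded DNA. On these arrays it was read by 1 probe set of 45037, the probe set 1424592_a_at, and that was the only entry for the gene among the 7806 probe sets named in the authors' deposited table of significant genes. The gene was chosen because its signal was very high in control cochleae and far lower after germanium dioxide (GeO2). Its levels and its difference between the groups are therefore given as a description, with no test. The same holds for its rank and its correlations with other probe sets.

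DNase I is made by secretory epithelia such as those of the salivary glands and kidney, and is present in saliva, urine and serum, where it degrades DNA released by dying cells. The enzyme needs divalent metal ions and is bound and inhibited by monomeric actin. Mice that lack it are known for lupus-like autoimmunity, in which antibodies against nuclear antigens arise. DNase I belongs to a family with the DNase1-like enzymes, while the lysosomal DNase II enzymes degrade engulfed DNA at acid pH.

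RNA came from the cochlea of male CBA mice, an inbred strain used in hearing research, aged 6 months in both groups. The GeO2 group (5 arrays) had received 0.15% GeO2 in the diet for 4 months, and the control group (5 arrays) normal chow. Germanium dioxide taken over a long time is known to damage kidney, muscle and nerve. The labels do not say whether a sample is 1 animal or a pool of animals, so a p-value here covers no more than the variation among these 10 samples, and that may be technical. The arrays had medians of 446.8 to 508.4 units, and their trimmed means had been set to 1496. Cochlear transcripts were present on every array: Otor, a secreted cochlear protein, averaged 21238 units in control and 13704 in GeO2, and Gjb6, a gap junction protein of the cochlea, 36225 and 41547. The number of arrays limits the precision. In RNA from whole tissue, fewer cells of a type and less RNA per cell cannot be told apart.

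In the RefSeq gene table of mouse assembly GRCm38.p6, Dnase1 lies on chromosome 16 from 4036958 to 4040024, on the forward strand. RefSeq gives promoter windows for 2 start sites, and the window of the upstream one, chr16:4036786-4037085, is shown so that motifs near an annotated start of the gene can be read beside its values. Both start sites lie inside the annotated gene. It runs from 250 bases before the start to 50 after it, 5′ to 3′, with capitals marking matches to CCAAT and to TATAAA on either strand.
Dnase1 upstream window: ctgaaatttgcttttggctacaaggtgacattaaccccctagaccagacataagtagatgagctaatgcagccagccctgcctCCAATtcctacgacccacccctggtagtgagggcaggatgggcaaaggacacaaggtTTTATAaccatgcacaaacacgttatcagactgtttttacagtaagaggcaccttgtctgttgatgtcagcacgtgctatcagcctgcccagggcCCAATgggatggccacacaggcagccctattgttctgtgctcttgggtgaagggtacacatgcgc
CCAAT occurred at positions 84 and 236 of the window on the gene's strand, and TATAAA at position 141 on the opposite strand. AAGGTCA, the half-site bound by estrogen-related receptors such as the strial factor Esrrb, was not in the window on either strand. Of 32851 RefSeq promoter windows of this length, 37.4% held CCAAT, 13.6% TATAAA and 4.72% AAGGTCA. The window of the other start site, chr16:4036895-4037194, shares most of these bases and held CCAAT once, at position 127, and TATAAA on the opposite strand at position 32. Which of the start sites is used in the cochlea was not analysed here, nor where the probes of the probe set lie.

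Dnase1 was among the brightest transcripts of the control cochlea. Its signal in control replicates 1 to 5 was 41441.6, 46681.9, 40048.9, 43280.0 and 39457.1 units, a mean of 42182 ± 2915 (SD, n = 5). It ranked 79th of 45037 probe sets by mean control signal, 80th by the median, and between 61st and 137th on single control arrays. The highest control array was 1.18 times the lowest, so the control level was even across samples. The coefficient of variation in control was 6.91%, against a median of 7.60% for the 100 probe sets nearest in mean control signal.

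In GeO2 the signal of replicates 1 to 5 was 8595.1, 3010.1, 6351.0, 5389.7 and 2424.4 units, a mean of 5154 ± 2519 (SD, n = 5). Replicate 1 was highest and replicate 5 lowest, and no GeO2 array overlapped the controls: the lowest control was 4.59 times the highest GeO2 array. The groups were apart in 12.2% of the 27022 probe sets bright enough to be tested, and apart with GeO2 lower in 5.62%, shares given for reference, since Dnase1 was chosen for its change. Each GeO2 array held between 5.75% and 20.4% of the mean control signal. Dnase1 thereby moved from the 79th to the 4282nd place by mean signal, and on single GeO2 arrays to places between 2347 and 8631.

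The ratio of mean signals, control over GeO2, was 8.18, and the difference of means of log2(signal + 16) was −3.18, a 9.05-fold difference. The study compared each control sample with each GeO2 sample. Over those 25 pairs the ratio of control to GeO2 signal ran from 4.59 to 19.3, with a median of 7.69 and a mean of 10.2. The authors' deposited table gives Dnase1 a signed fold change of −8.7, which lies within that range, and files it under DNA catabolism, apoptosis, actin binding and extracellular space.

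**Figure D1:**
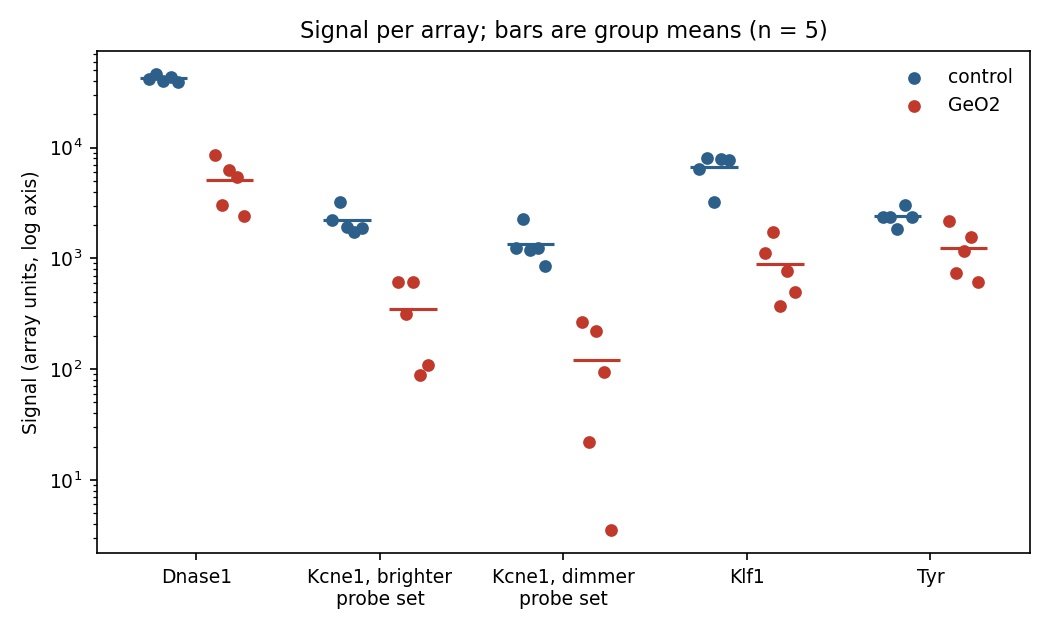
Signal of Dnase1, of both Kcne1 probe sets, of Klf1 and of Tyr on each of the 10 arrays, on a log axis in array units. Points are arrays (blue control, red GeO2) and bars are group means. The Dnase1 controls sit close together at 39457.1 to 46681.9 units, and the GeO2 arrays spread from 2424.4 to 8595.1.

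The GeO2 arrays disagreed with each other about how much Dnase1 remained. The highest was 3.55 times the lowest, and the coefficient of variation was 48.9%. Of the 100 probe sets nearest in mean GeO2 signal (5109 to 5216 units), the median coefficient of variation was 15.6% and the highest 38.1%, so none varied as much as Dnase1. On the log2 scale the SD was 0.76 in GeO2 and 0.10 in control. Among the 65 probe sets that were at least 4-fold lower in GeO2, Dnase1 was the brightest in control and had the smallest control SD, against a median of 0.59. Its SD in GeO2 was below the median of 0.98 over those 65 probe sets, of which 13 had a smaller one.

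Other probe sets as bright as Dnase1 in control kept most of their signal. Of the 100 probe sets brightest in control, Dnase1 alone was at least 2-fold lower in GeO2, and the log2 differences of the other 99 ran from −0.74 to 0.24. Among the 450 brightest (the top 1%, down to 23795 units in control), the median log2 difference was −0.05, and 15 were at least 2-fold lower, 5 of them at least 4-fold. Dnase1 had the third largest fall of the 450, after a pair of probe sets that are not named here. Of the 450, 20.7% passed a false discovery rate of 0.05 in the limma fit over all probe sets, 17.1% lower and 3.56% higher. Over all 27022 probe sets tested it was the 8th lowest.

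**Figure D2:**
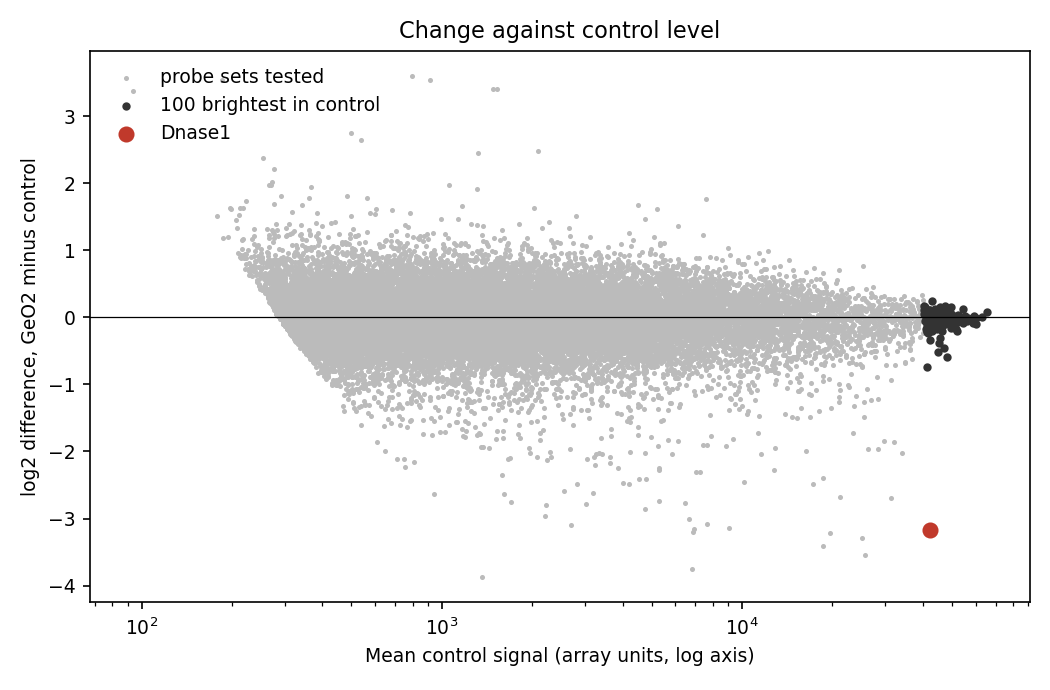
Difference between groups (GeO2 minus control, means of log2(signal + 16)) against mean control signal (log axis, array units) for the 27022 probe sets tested. Black points are the 100 brightest in control; the red point, Dnase1, lies at −3.18 while the other 99 lie between −0.74 and 0.24.

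Named probe sets next to Dnase1 in control signal differed far less. Just above it, Car2, carbonic anhydrase 2, went from 47160 ± 3082 to 34414 ± 4522 units, and the respiratory chain subunit Cox7a2 from 46336 ± 3315 to 40176 ± 1943 (SD, n = 5 per group). Just below it, Cox6b1 went from 42178 ± 1980 to 33529 ± 1357 units, and Hba-a1, alpha globin, from 41438 ± 3756 to 35964 ± 3573 (SD, n = 5 per group). These 4 differences lay between −0.46 and −0.20 on the log2 scale. The named probe sets of the top 1% with the largest falls after Dnase1 were Eraf, the chaperone of alpha haemoglobin (−2.69), Gpx1, glutathione peroxidase 1 (−2.03), a dimmer Hba-a1 probe set (−1.97), Atp5k, an ATP synthase subunit (−1.96), and the erythroid genes Alas2 and Slc4a1 (each −1.85). Hba-a1 thus differed by −0.21 at the probe set near Dnase1 and by −1.97 at the dimmer one (26307 units in control). Whether the brightest signals understate a difference was not tested.

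By profile over the 10 arrays, the gene nearest to Dnase1 was Kcne1, which encodes the accessory subunit of the channel that carries potassium from marginal cells into the endolymph. Likeness was measured as the root mean square distance between log2 values, each set relative to its own control mean, and the brighter Kcne1 probe set lay at 0.68, the smallest distance of all 27021 other probe sets. It read 2238.7, 3237.7, 1938.8, 1740.8 and 1876.2 units in control replicates 1 to 5 and 614.3, 315.5, 608.2, 88.6 and 108.1 in GeO2. Next came Blvrb, biliverdin reductase B (0.81), Klf1, the erythroid transcription factor (0.82), Isg20, an exonuclease induced by interferon (0.89), Icam4, a red cell adhesion molecule (0.90), and Ube2c, a ubiquitin-conjugating enzyme of mitosis (0.94). No unnamed probe set was nearer than Ube2c. This distance mostly measures the size of the fall, since all 6 genes were between 5.11-fold and 8.03-fold lower at the probe set named here.

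The distance says little about which arrays were high within a group, and there these genes parted. For each probe set, deviations of the log2 values from the group means were correlated with those of Dnase1 over the 10 arrays. All points share the arrays and their scaling, and 98.4% of the squared deviation of Dnase1 came from the GeO2 arrays. Over 27021 probe sets the median Pearson r was 0.03, with a 5th percentile of −0.60 and a 95th of 0.65, so single values of this size are common with so few arrays. The highest of all was the dimmer Kcne1 probe set, at r = 0.97 (Spearman's rho 0.98). It read 1230.4, 2277.2, 1198.3, 1229.1 and 847.9 units in control replicates 1 to 5, and 267.4, 21.8, 221.3, 94.5 and 3.5 in GeO2, the same order of GeO2 arrays as for Dnase1. Without GeO2 replicates 1 and 5, the arrays farthest from the median Dnase1 deviation, r was 0.94. On linear signals it was 0.82. The brighter Kcne1 probe set gave only 0.58, and 0.10 without those 2 arrays. Its lowest array was GeO2 replicate 4 (88.6 units), which for Dnase1 was the third highest of the GeO2 arrays. Klf1, Isg20, Icam4 and Ube2c, which lay close to Dnase1 by distance, gave r from −0.03 to 0.05, and Blvrb 0.14. Without GeO2 replicates 1 and 5 these 5 genes gave −0.69, −0.45, −0.61, −0.59 and −0.57, so their values near 0 depended on those 2 arrays.

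**Figure D3:**
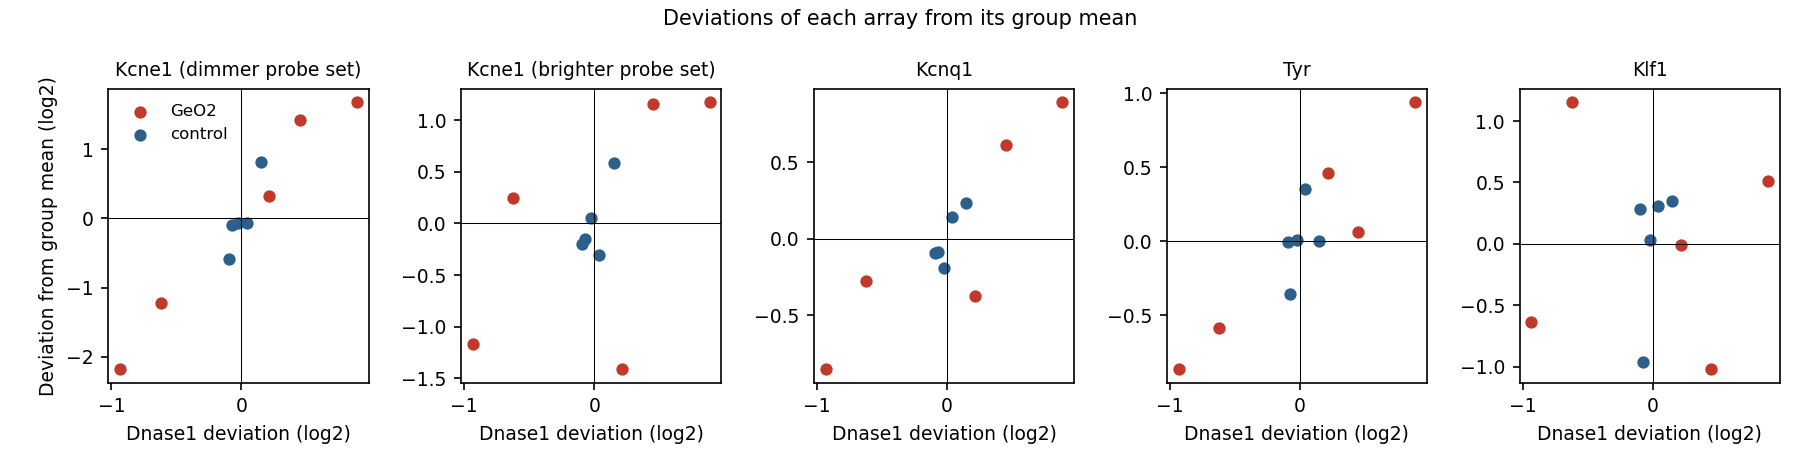
Deviation of each array from its group mean on the log2 scale, Dnase1 on the horizontal axis and 5 other probe sets on the vertical axes (red GeO2, blue control, 10 arrays). Within-group r was 0.97 for the dimmer Kcne1 probe set, 0.58 for the brighter, 0.88 for Kcnq1, 0.91 for Tyr and −0.01 for Klf1. Without GeO2 replicates 1 and 5 these gave 0.94, 0.10, 0.62, 0.72 and −0.69. Of the squared deviation of Dnase1, 98.4% came from the GeO2 arrays.

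After Kcne1, the named genes most like Dnase1 within groups were AI663975 (r = 0.95), Alg14, a subunit of the transferase that starts N-linked glycans (0.94), and Rnaseh2c, a subunit of ribonuclease H2, which removes RNA from DNA (0.94). Their differences between groups went both ways, at 0.47 for AI663975, −0.90 for Alg14 and −1.12 for Rnaseh2c on the log2 scale. Rnaseh2c was read here at its probe set with the higher r. Another named Rnaseh2c probe set, brighter in control (2577 against 2090 units), differed by −0.81, and its r is not given here. Without the 2 farthest arrays these 3 gave 0.87, 0.85 and 0.90. In all, 26 probe sets had r of at least 0.9, 7 of them named. Tyr, tyrosinase, the pigment enzyme of melanocytes such as the intermediate cells of the stria vascularis, was 1 of the 7 and is named here after its values were seen. It gave r = 0.91 (rho 0.90, and 0.72 without the 2 farthest arrays). Tyr read 2169.2, 741.3, 1173.7, 1555.0 and 609.3 units in GeO2 replicates 1 to 5, against 2398 ± 421 in control (SD, n = 5). At the other end were Asrgl1, an asparaginase (r = −0.90), and the transcription factor genes Pknox1 (−0.89) and Tcf12 (−0.84), with Orc4, a subunit of the replication origin complex (−0.84). Without the 2 farthest arrays these 4 gave −0.81, −0.97, −0.65 and −0.45.

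Among other genes for DNA nucleases and their inhibitors, Isg20, Exo1 and Fen1 were lower in GeO2, and each of their differences was smaller than that of Dnase1. Of 22 genes on the list, 9 were named in the authors' table, and 7 were bright enough to be tested. In limma, with p adjusted by Benjamini-Hochberg over all probe sets and a threshold of 0.05, 4 of the 7 fell, 0 rose and 3 missed the threshold. Their median log2 difference was −0.69, against −0.02 over all probe sets tested, 0.23 over the named ones and −0.22 over 5115 named genes read, as the members are, at 1 probe set each. Over all 27022 probe sets 16.3% were called, 7.81% lower and 8.5% higher. Because names come only from a table that was selected on these arrays, the share to compare with is that among its 6572 named probe sets tested, of which 59.9% were called, 28.9% lower and 31.0% higher. The 4 of 7 is near the 59.9% called in either direction. All 4 were lower, and 28.9% of named probe sets were called lower.

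Isg20 had the largest fall of the list. It read 10412.7, 11220.7, 6376.9, 9838.6 and 13024.1 units in control replicates 1 to 5 and 2325.7, 3178.6, 2144.2, 787.7 and 1514.3 in GeO2. The groups did not overlap, and the log2 difference was −2.45 (SE 0.31, adjusted p = 0.000738 in limma). Exo1, an exonuclease of mismatch repair, went from 536.2 ± 85.3 to 222.7 ± 116 units (SD, n = 5) and fell by 1.32 on the log2 scale (adjusted p = 0.00791 in limma). Fen1, which trims flaps during replication, went from 13155 ± 3265 to 7261 ± 1196 units (SD, n = 5) and fell by 0.84 (adjusted p = 0.00642 in limma). Its groups did not overlap, with control replicates at 9818.8 to 17406.9 units and GeO2 replicates at 5698.0 to 8411.0. Isg20, Exo1 and Fen1 kept their calls in all 10 fits that left out an array. Endog, the mitochondrial endonuclease G, went from 2050 ± 502 to 1252 ± 220 units (SD, n = 5), a difference of −0.69 (adjusted p = 0.023 in limma). Endog lost its call without GeO2 replicate 4 or 5 or without control replicate 1, 2 or 3 (adjusted p = 0.0507 to 0.0565 in limma). Within groups, the r of the 7 members with Dnase1 ran from −0.14 to 0.49.

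The members that did not pass were Dffb, the caspase-activated DNase that cuts chromatin in apoptosis (0.32, adjusted p = 0.202 in limma), Apex1, the endonuclease of base excision repair (−0.23, adjusted p = 0.0753), and Tatdn1, a putative deoxyribonuclease (−0.62, adjusted p = 0.115). The 2 listed members of the DNase I and DNase II families that have a named probe set were dim. Dnase1l2, a DNase1-like enzyme, read 260.8 ± 59.3 units in control and 157.7 ± 25.9 in GeO2 (SD, n = 5), and Dnase2a, the lysosomal DNase II, 438.1 ± 201 and 190.8 ± 51.5 (SD, n = 5). Both were below the signal needed for the test. With all probe sets kept, neither passed (−0.66, adjusted p = 0.113, and −1.01, adjusted p = 0.118 in limma), and the authors' deposited table gives them signed fold changes of −1.6 and −1.7. The signal of different probe sets does not compare levels between genes. These 2 and Dnase1 are the entries filed under DNA catabolism in that table. The other 13 genes on the list, Dnase1l1 and Dnase1l3 among them, have no named probe set here and were not analysed.

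**Figure D4:**
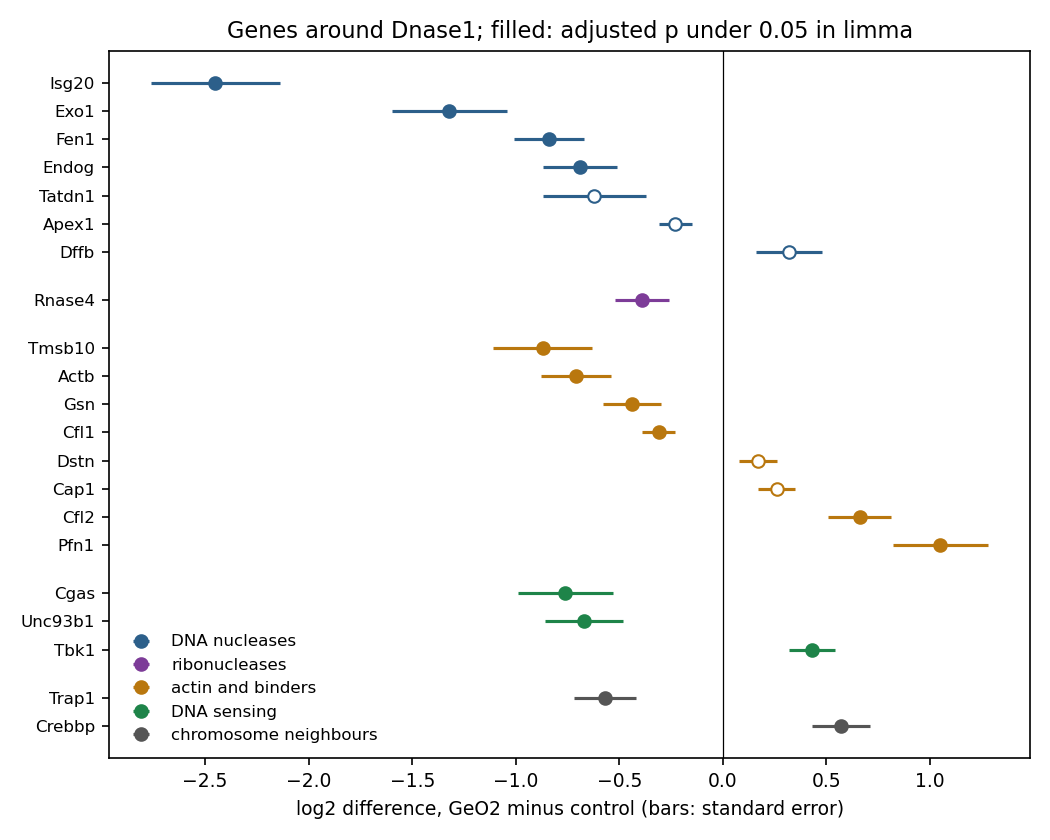
Difference between groups (GeO2 minus control, log2 scale, bars are standard errors) for the measured genes of DNA nucleases, ribonucleases, actin and its binding proteins, DNA sensing and the chromosome neighbours of Dnase1. Filled points passed an adjusted p under 0.05 in limma; Isg20 at −2.45 is the lowest and Pfn1 at 1.05 the highest.

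Actin inhibits DNase I, and the genes of actin and of proteins that bind its monomers moved in both directions. Of 14 listed genes, 8 were measured. The test called 4 of them lower and 2 higher, where 28.9% and 31.0% of named probe sets were called, and the median difference was −0.07. Between 4 and 6 of the 8 passed when single arrays were left out. Actb, beta actin, went from 2974 ± 790 to 1771 ± 225 units (SD, n = 5) at its brightest named probe set and fell by 0.71 (adjusted p = 0.0148 in limma). Pfn1, profilin 1, which loads monomers onto growing filaments, rose from 2360 ± 366 to 5118 ± 1949 units (SD, n = 5), by 1.05 (adjusted p = 0.00885 in limma), and Cfl2, the muscle-type cofilin, rose by 0.66 (adjusted p = 0.0121). Tmsb10, a monomer-binding thymosin, changed by −0.87 (adjusted p = 0.0269 in limma). Tmsb10 lost its call without GeO2 replicate 4 or 5 or without control replicate 1, 3 or 5 (adjusted p up to 0.0715). The r of the 8 with Dnase1 within groups ran from −0.48 to 0.49.

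DNA that nucleases leave undigested can be detected by sensors in the cytosol and endosome. Of 14 listed genes of sensing and its signalling, 3 were measured and the test called 2 lower and 1 higher, where 59.9% of named probe sets were called. Only 1 to 3 of them passed when single arrays were left out. Cgas, listed as E330016A19Rik, the cytosolic DNA sensor, changed from 914.3 ± 92.5 to 559.9 ± 179 units (SD, n = 5), by −0.76 (adjusted p = 0.0414 in limma). Cgas lost its call without GeO2 replicate 4 or 5 or without any single control replicate (adjusted p = 0.0515 to 0.0851). Unc93b1, which carries endosomal Toll-like receptors, changed by −0.67 (adjusted p = 0.0266 in limma) and lost its call without GeO2 replicate 4 or control replicate 2 or 4 (up to 0.0614). Tbk1, the kinase downstream of these sensors, rose by 0.43 (adjusted p = 0.0184 in limma), with its call lost without control replicate 1 (0.0545). Of 8 ribonuclease genes listed, 1 was measured. Rnase4, a secreted ribonuclease, changed by −0.39 (adjusted p = 0.0476 in limma), and lost its call in 8 of the 10 fits without a single array (up to 0.105). The fits that kept it left out GeO2 replicate 1 or control replicate 3.

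The genes beside Dnase1 on chromosome 16 did not move as it did. Trap1, a mitochondrial chaperone of the HSP90 family, is transcribed from the opposite strand (4039971 to 4077840), so that its annotated end overlaps that of Dnase1 by 54 bases. At its brighter probe set Trap1 read 4736.9, 4545.8, 3327.6, 5788.3 and 4665.8 units in control replicates 1 to 5 and 2547.0, 3742.4, 2762.9, 2960.5 and 3443.5 in GeO2. The groups overlapped, and the difference was −0.57 (SE 0.15, adjusted p = 0.0252 in limma). Trap1 lost its call without GeO2 replicate 4 or without control replicate 1, 2, 4 or 5 (adjusted p = 0.0501 to 0.0607) and with arrays shifted to 1 median (0.0559), and its other probe set differed by −0.60 (adjusted p = 0.0501). Within groups its r with Dnase1 was −0.54 and 0.09 at those probe sets. Crebbp, a histone acetyltransferase whose gene (4081334 to 4213957) lies 41309 bases beyond Dnase1, rose from 1661 ± 183 to 2495 ± 389 units (SD, n = 5), by 0.57 (adjusted p = 0.0135 in limma). The other 8 of the 10 genes nearest in order, 5 on each side, Slx4 and Nlrc3 among them, have no named probe set here.

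Markers of several cell types that cochlear RNA can hold differed between the same groups. Of 14 markers of strial marginal cells, which secrete potassium into the endolymph, 8 were measured and 8 fell, with a median of −0.95, where 28.9% of named and 7.81% of all probe sets tested were called lower. Without single arrays 6 to 7 passed, and 5 of the 8 passed in each of those fits. Their summed signal was 56785 to 64410 units in control and 30749 to 39390 in GeO2. Within groups their correlations with Dnase1 had both signs. Kcnq1, the pore subunit of the channel, gave r = 0.88 with Dnase1, the nuclear receptor gene Esrrb 0.72, the cotransporter gene Slc12a2 0.63 and Kcne1 at its brighter probe set 0.58. Without the 2 farthest arrays these 4 gave 0.62, 0.18, 0.45 and 0.10. Without GeO2 replicate 5 alone Esrrb gave 0.43, and Kcne1 gave 0.38 without it or 0.39 without GeO2 replicate 1. The sodium pump gene Atp1b2 gave −0.48, Atp13a5 −0.40 and Stac −0.33. Without GeO2 replicate 5 Atp13a5 turned to 0.27 and Stac gave −0.09, while Atp1b2 ran from −0.78 without GeO2 replicate 1 to −0.25 without GeO2 replicate 2. Most of these values lie inside the range of −0.60 to 0.65 between the 5th and the 95th percentile of all probe sets. Kcnq1 read 1661.8, 731.1, 1365.6, 683.0 and 485.0 units in GeO2 replicates 1 to 5, against 2141 ± 269 in control (SD, n = 5), and fell by 1.24 (adjusted p = 0.0106 in limma). The part of marginal cells in the Dnase1 difference was not tested.

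Markers of red cell precursors also fell. Of 18 erythroid markers, 16 were measured under their listed names and 15 fell (13 to 15 without single arrays). For reference, 28.9% of named and 7.81% of all probe sets tested were called lower. The median was −2.55, with a summed signal of 121391 to 207757 units in control and 57178 to 112175 in GeO2. Eraf, an older symbol of the listed marker Ahsp, was not matched to it, so these counts, median and sums leave it out. Eraf went from 31331 to 5733 units, a difference of −2.69 (adjusted p = 0.00141 in limma). Within groups the r of the 16 markers with Dnase1 ran from −0.37 to 0.19, inside the range of −0.60 to 0.65 given above. These values depended on 2 arrays. Without GeO2 replicates 1 and 5 all 16 gave a negative r, from −0.88 (Slc4a1) to −0.20 (Tfrc). The range over all probe sets on the 8 arrays left is not given here. Klf1 was lowest among controls in replicate 3, at 3244.5 units against 6463.0 or more in the other controls, and Dnase1 in that array, at 40048.9 units, was second lowest of the controls. Among GeO2 arrays Klf1 was highest in replicate 2 (1743.5 units), where Dnase1 was second lowest (3010.1 units). The part of red cell precursors in the Dnase1 difference was not tested.

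Markers of gland and airway epithelium moved in both directions. Of 28 listed, 8 were measured. The test called 5 of them higher and 2 lower, where 31.0% and 28.9% of named probe sets were called. These 7 were 4 without GeO2 replicate 5. The higher ones were Krt18, Krt8, Cdh1 and Epcam, which epithelia of many kinds express, and Sftpd. The lower ones were Scgb3a2 and Aqp5, a water channel of glands and airways named here after its values were seen (−0.75, adjusted p = 0.0291 in limma). The median was 0.68, with a summed signal of 30818 to 36805 units in control and 41825 to 73770 in GeO2. Krt18 and Krt8, keratins of simple epithelia, rose by 1.15 and 0.92 (adjusted p = 0.00317 and 0.0134 in limma). Scgb3a2, a secretoglobin of airway cells, fell by 1.71 (adjusted p = 0.00367 in limma). Sftpd, surfactant protein D, read 6088.3, 791.5, 11200.3, 696.0 and 9537.5 units in GeO2 replicates 1 to 5 and 320.1 to 796.2 in control. It rose by 2.64 (adjusted p = 0.0245 in limma), but not past the threshold without GeO2 replicate 3 or 5 or control replicate 2, 4 or 5 (up to 0.063). Within groups the r of the 8 with Dnase1 ran from −0.26 to 0.66. The part of secretory epithelium in the Dnase1 difference was not tested.

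Other cell types were read by few markers, and 28.9% of named probe sets were called lower and 31.0% higher beside the counts that follow. Of 10 spiral ligament fibrocyte and limbus markers 5 were measured and 4 fell, with a median of −0.69. Of 10 supporting cell and tectorial membrane markers 3 were measured and 3 rose, with a median of 0.73. Of 14 neutrophil markers 2 were measured, Lcn2 and Cd177, and both rose (12.1-fold and 3.85-fold), with Cd177 losing its call in 9 of the 10 fits without a single array (up to 0.0897), all except that without GeO2 replicate 4. Of 12 muscle markers 3 were measured and 3 fell, with a median of −0.92 (1 passed without GeO2 replicate 5 or control replicate 2). Car3 stands on both the ligament and the muscle list. Of 12 hair cell markers Myo6 alone was measured, with a rise of 0.65 that lost its call in 6 of those fits (GeO2 replicates 3, 4 and 5 and control replicates 1, 3 and 5, up to 0.0856). Of 7 spindle and root cell markers Anxa1 alone was measured, with a rise of 0.44 that lost its call in 5 (GeO2 replicates 1 and 3 and control replicates 1, 3 and 5, up to 0.0743). No marker was at a signal of 0. The part of these cell types in the Dnase1 difference was not tested.

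**Figure D5:**
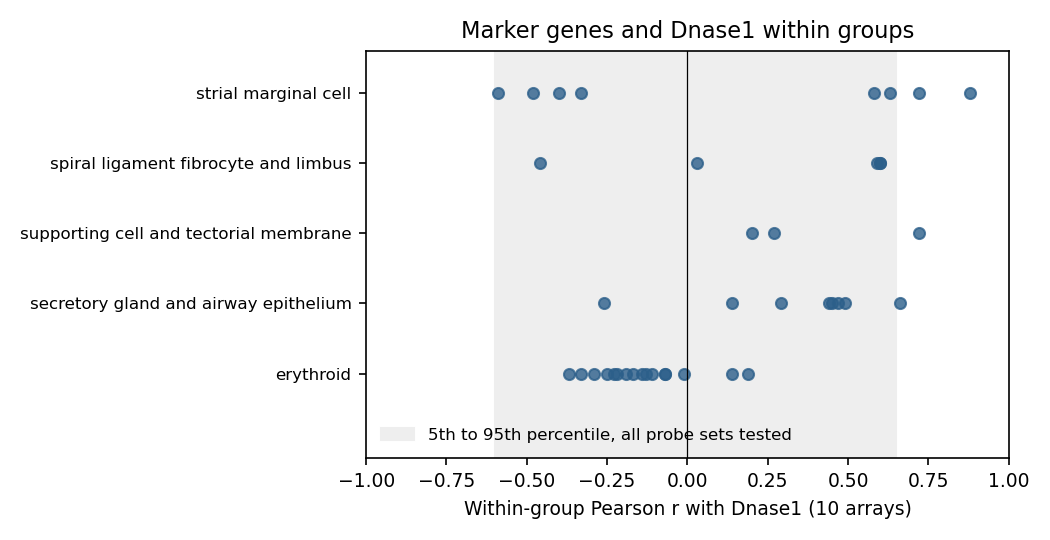
Within-group Pearson r with Dnase1 over 10 arrays for the measured markers of 5 cell types (points are genes), with the range from the 5th to the 95th percentile of all probe sets tested (−0.60 to 0.65) in grey. Strial marginal cell markers lie on both sides of 0, with Kcnq1 at 0.88, and erythroid markers lie between −0.37 and 0.19. Without GeO2 replicates 1 and 5 the erythroid markers gave −0.88 to −0.20.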

How the data were processed

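Cochlear RNA of 10 samples was hybridised to Affymetrix arrays, 1 per sample. The deposited values are linear intensities per probe set, made with GCOS version 1.3 per the submitters' processing notes, and already scaled to 1 trimmed mean per array. The authors' deposited table gives p-values and a signed fold change (a score) for 7806 probe sets, averaged over 25 pairwise comparisons per the file's closing note.

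From these, log2(signal + 16) was taken with no further scaling. Probe sets in the lowest 40% by mean were left out, and 27022 were fitted with limma 3.58.1 in R 4.3.3 (lmFit, eBayes with trend, two-sided, Benjamini-Hochberg over all tested, threshold 0.05), with code tested on simulated data. Probe sets are named only from the authors' table, with 2354 old symbols updated through RefSeq. Another 416 symbols had no match and 34 had several, and these were kept as listed, Eraf among them. A list member is read at its brightest named probe set. For profile distance and within-group r, a gene is read at its nearest or most extreme probe set.

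Named were the measured members of the nuclease list and of the chromosome neighbours, up to 4 members of each other list by size of change, the 6 nearest profiles, the 4 highest and 4 lowest within-group r, the named probe sets next in control signal, and the largest falls of the brightest 1%. Some genes that this rule or a list takes in are not reported by name here. Markers named for their r were chosen after their values were seen. The gene and the lists were chosen with earlier results of these data known. Alternatives covered scaling, offset, filter, array weights, replicate block and leaving out each array.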

Additional observations from a re-analysis of the deposited data

Results flagged for a closer look

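In a group of 5 arrays, 1 array stood far from the other 4 in 11 of 136 combinations of a named probe set and a group, where chance flags about 1 in 20. Dnase1 was not among them. Of the 11, 6 were low values of control replicate 3: Blvrb (2458.3 units, others 4317.8 to 5002.8), Klf1 (3244.5, others 6463.0 to 8074.3), Icam4 (896.0, others 1628.3 to 1916.4), Ube2c (1232.0, others 3104.1 to 4148.3), Alas2 (18746.3, others 31225.4 to 38162.5) and Slc4a1 (20043.5, others 31436.0 to 32985.5). GeO2 replicate 3 was high in Cox7a2 (43579.3 units, others 38966.9 to 39995.5) and Cox6b1 (35933.7, others 32669.3 to 33190.2). Pfn1 was low in control replicate 4 (1721.9 units, others 2386.2 to 2610.8), Stac in GeO2 replicate 4 (153.4, others 259.1 to 306.0), and Otog, a protein of the tectorial membrane, was high in control replicate 2 (10013.2, others 5179.4 to 6165.4).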

How the results depend on the processing

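The Dnase1 difference of −3.18 was −3.19 under quantile normalization, −3.13 with arrays shifted to 1 median, and −3.18 and −3.16 with a smaller and a larger offset. Leaving out each array in turn gave −3.40 to −2.94. The count of changed probe sets, 4408, was 2795 to 4855 with single arrays left out (2795 without GeO2 replicate 5 and 2816 without control replicate 1), 6197 with array weights and 3645 with no filter. A pooled-variance test on linear signals, adjusted over all probe sets, gave 2235. Of the 7 nuclease genes tested, 3 to 4 passed with single arrays left out, 5 under quantile normalization, where Apex1 passed (adjusted p = 0.0429 in limma), and 3 with the lowest 60% left out, where dim members were not tested. With the replicate number as a block 4431 probe sets and 4 nuclease genes passed. Same-numbered arrays deviated with r of −0.05 to 0.17, over 0.1 in 2 of 5 pairs, and 1 of 5 GeO2 arrays correlated best with its own number, so the number is not taken as a pairing. The block ended the calls of Rnase4 (0.051), Cgas (0.0581) and Otog (0.0617). With the filter removed Rnase4, Cgas, Cd177, Anxa1, Myo6 and Otog lost their calls. Of 39 named list members that passed, 25 kept the call whichever single array was left out, and 0 of the alternatives turned a direction. Signals near the offset, such as 3.5 units for Kcne1, limit what r can show.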

Other observations

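The order of the GeO2 arrays by Dnase1 signal, replicate 1 highest, then 3, 4, 2 and 5, was shared by 266 of the other probe sets tested (0.984%), 63 of them named. That share was not compared with the share of any other order, so it does not show a shared pattern. Supporting cell genes went the other way from Dnase1 between the groups. Sox2, a transcription factor of supporting cells, rose by 0.91 and Fgfr3, a growth factor receptor, by 0.62 (adjusted p = 0.00385 and 0.0147 in limma), and both kept the call whichever single array was left out. Otog rose by 0.73 with all arrays (adjusted p = 0.0438 in limma) and lost its call in 7 of the 10 fits without a single array (up to 0.101), all except those without GeO2 replicate 2 or 5 or control replicate 2.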
